A study of Mus musculus with 6 samples.

Results

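The immunity-related GTPases (IRGs) are a family of interferon-inducible GTPases, and 7 of its genes were taken by name from the 54532 genes of the table: Irgm1, Irgm2, Igtp, Iigp1, Ifi47, Tgtp1 and Tgtp2. Their RNA was measured in 6 poly-T selected libraries labelled as bone marrow-derived macrophages (BMDMs) from mouse, each collected after co-culture with ID8 cells, a mouse ovarian cancer line. In 3 libraries the ID8 cells had first been exposed to cisplatin at 40 µM, a chemotherapy drug that forms platinum adducts on DNA, and in 3 to phosphate-buffered saline (PBS). No library came from BMDMs kept without ID8 cells, so both groups share the co-culture, and the sources used here mention no added interferon. The methods call the plated cells monocytes from marrow of C57BL/6 mice, which were collected after the co-culture, and state no depletion of ID8 cells. The methods speak of biological replicates without saying whether the 3 libraries of a group came from separate animals or cultures, so p-values measure only the spread between these samples.

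Most cells hold little IRG protein until an interferon signal reaches them. Binding of interferon-gamma or the type I interferons to their receptors activates JAK kinases and STAT factors, which occupy gamma-activated sites and interferon-stimulated response elements in front of target genes. The IRG proteins fall into 2 classes by the sequence of their nucleotide-binding loop. The GKS proteins (Iigp1, Ifi47, Tgtp1 and Tgtp2) are effectors that gather on the vacuoles of intracellular parasites such as Toxoplasma gondii and disrupt them. The GMS proteins (Irgm1, Irgm2 and Igtp) sit on the membranes of the host cell and hold the effectors in the inactive, GDP-bound state there. In macrophages the family is known for cell-autonomous defence against parasites and bacteria.

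The sequences in front of 4 of these genes are shown because they share a stretch that holds both kinds of element. RefSeq start-site windows (GRCm38.p6, 250 bases before and 50 bases after the start, on the strand of the gene) were found for 6 of the 7 genes, Iigp1 being the other. The windows were searched on both strands for GAAANNGAAA, the core of the interferon-stimulated response element, and TTCNNNGAA, the core of the gamma-activated site. The first was in 5 of the 6 windows and in 3.44% of all 32851 windows, and the second in 4 of the 6 and in 8.30% of all. In Igtp, Irgm2, Tgtp1 and Tgtp2 the gamma-activated site began 11 bases before the response element, with 2 bases between them. The 30 bases that carry the pair are written 5′ to 3′ with the motifs in capitals, all on chromosome 11. A stretch of Irgm1, which lacks the pair, comes last.
Igtp, chr11:58199502-58199531, plus strand, -54 to -25 from the start: actagccatTTCTAGGAActGAAACTGAAA
Irgm2, chr11:58214893-58214922, plus strand, -84 to -55: actagccatTTCCAGGAActGAAACTGAAA
Tgtp1, chr11:48992314-48992343, minus strand, -97 to -68: actagccatTTCCAGGAAtcGAAACTGAAA
Tgtp2, chr11:49064273-49064302, minus strand, -90 to -61: gctagccatTTCCAGGAAtcGAAACCGAAA
Gm12185, a family gene beside Tgtp1, chr11:48927248-48927277, minus strand, -95 to -66: actagccatTTCCAGGAAtaGAAAGTGAAA
Irgm1, the other GMS gene, chr11:48871423-48871462, minus strand, -42 to -3: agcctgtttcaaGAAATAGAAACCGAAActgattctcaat
Of the 30 positions, 25 were identical in the 4 members and 24 when Gm12185 was added. The pair at this spacing was in 5 of the 32851 windows, those of Igtp, Irgm2, Tgtp1, Tgtp2 and Gm12185. The spacing was read from these genes themselves, so the count is a description. Irgm1 held a pair of response elements that overlap by 4 bases, in capitals, and no gamma-activated site, and Ifi47 held neither motif in its window. A match is a match of letters and was not measured as a bound site.

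**Figure D1:**
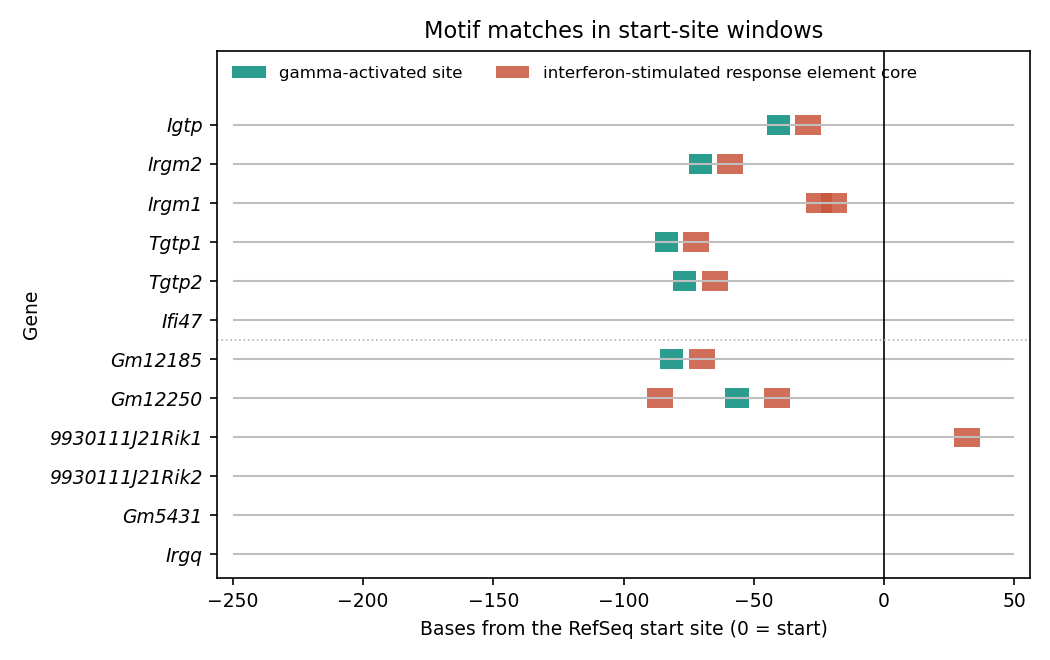
Positions of the 2 motif cores in the start-site windows of the 6 members with a RefSeq window (above the dotted line) and of 6 other family genes (below it), in bases from the start. The gamma-activated site and the response element lie side by side in Igtp, Irgm2, Tgtp1, Tgtp2 and Gm12185, 34 to 77 bases from response element to start.

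All 7 IRG genes were lower in the libraries from cisplatin-pretreated co-cultures. Summed over the 7 genes, the level in FPKM (fragments scaled to the length of the gene and to the reads of the library) was 417, 428 and 421 in the PBS libraries and 80.6, 81.8 and 74.9 in the cisplatin libraries, a 5.33-fold lower mean. Each gene was below every PBS library in every cisplatin library. A call required an adjusted p under 0.05 (limma on log2(FPKM + 1), Benjamini-Hochberg over the 13441 genes with at least 1 FPKM in at least 3 libraries) together with a log2 fold change of 1 or more in size. By this rule 7 of 7 were called lower and 0 higher, where 11.3% of all tested genes were called lower and 4.67% higher. For 37.2% of all tested genes the 3 cisplatin libraries also lay below the 3 PBS libraries, so that separation alone was common here. The median log2 fold change of the members was -2.60, and that of all tested genes was -0.0011. In bulk RNA of this kind, fewer cells that express a gene and less RNA per cell cannot be told apart.

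**Figure D2:**
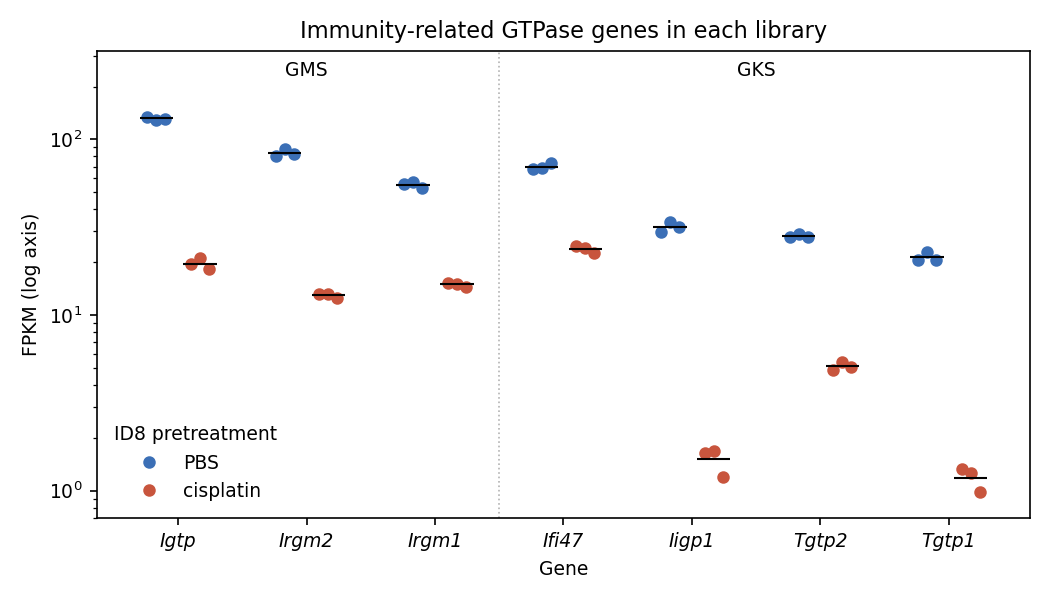
FPKM of the 7 genes in each library on a log axis, PBS in blue and cisplatin in red, with a short line at the group mean (n = 3 libraries per group). The groups do not overlap for any gene, and Iigp1 and Tgtp1 sit lowest, between 0.982 and 1.68 FPKM, in the cisplatin libraries.

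Among the GMS regulators, Igtp (ENSMUSG00000078853, chromosome 11, 58199556 to 58207591, plus strand), whose product is also called Irgm3 and is found on the endoplasmic reticulum and lipid droplets, had the highest PBS level of the family. It stood at 134, 129 and 132 FPKM with PBS and at 19.5, 21.2 and 18.2 FPKM with cisplatin. Its mean was 132 ± 2.67 against 19.6 ± 1.51 (SD, n = 3 each), 6.70-fold lower, with a log2 fold change of -2.69 (95% interval -2.82 to -2.55, limma adjusted p = 1.04e-07). Irgm2 (ENSMUSG00000069874, chromosome 11, 58199618 to 58222782, plus strand), whose protein is found at the Golgi, stood at 80.8, 87.8 and 82.5 FPKM with PBS and at 13.2, 13.2 and 12.5 FPKM with cisplatin. The change was close in size to that of its neighbour Igtp, at -2.60 (95% interval -2.71 to -2.49, limma adjusted p = 6.68e-08) on the log2 scale, or 6.46-fold. The annotated Igtp and Irgm2 genes overlap on the same strand over 162 exonic bases, 8.01% of Igtp and 4.39% of Irgm2, and reads there cannot be given to one of them.

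Irgm1 (ENSMUSG00000046879, chromosome 11, 48861968 to 48871683, minus strand), which is required for macrophage control of mycobacteria, lies in the other chromosome 11 cluster. It stood at 55.8, 56.9 and 53.1 FPKM with PBS and at 15.3, 15.1 and 14.5 FPKM with cisplatin. The fall was 3.70-fold, a log2 fold change of -1.82 (95% interval -1.92 to -1.72, limma adjusted p = 1.37e-07), the smallest of the 3 GMS genes, and its interval did not overlap those of Igtp and Irgm2. No exon of Irgm1 overlaps another gene and none of its 100-base stretches occurs in another gene's transcripts.

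Among the GKS effectors, Iigp1 (ENSMUSG00000054072, chromosome 18, 60376029 to 60392627, plus strand), whose product Irga6 is a well studied effector on the Toxoplasma vacuole, fell furthest of the members. It stood at 29.9, 33.7 and 31.7 FPKM with PBS and at 1.64, 1.68 and 1.20 FPKM with cisplatin, which are 1534 to 1649 reads against 62 to 87 reads. The means differed 21.1-fold, and the log2 fold change was -3.71 (95% interval -3.92 to -3.50, limma adjusted p = 1.62e-07). On this scale it was the largest fall of the 7 members and the 22nd largest of the 13441 tested genes. With so low a level in the cisplatin libraries the added 1 FPKM understates the change, and limma voom on reads recovered from the FPKM gave -4.31. Iigp1 shares no 100-base stretch with another annotated gene.

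Tgtp1 (ENSMUSG00000078922, chromosome 11, 48985327 to 48994172, minus strand) and Tgtp2 (ENSMUSG00000078921, chromosome 11, 49057194 to 49064206, minus strand) are a recent duplicate pair that encodes the effector Irgb6. Tgtp1 stood at 20.5, 22.8 and 20.5 FPKM with PBS and at 1.32, 1.25 and 0.982 FPKM with cisplatin, 17.96-fold lower in the mean (log2 fold change -3.35, 95% interval -3.54 to -3.16, limma adjusted p = 1.48e-07). Tgtp2 stood at 27.7, 29.0 and 27.8 FPKM with PBS and at 4.88, 5.39 and 5.09 FPKM with cisplatin, 5.50-fold lower (log2 fold change -2.25, 95% interval -2.37 to -2.14, limma adjusted p = 1.05e-07). Both copies were low in the same 3 libraries, with Tgtp1 lower than Tgtp2 in each of the 6. Their coding sequences of 1245 bases are 99.7% identical, and 73.1% of the 100-base stretches of Tgtp1 and 76.8% of those of Tgtp2 occur in another gene, nearly always the other copy. How reads that match both were counted is not given in the sources used here, so the split between the copies is uncertain. Taken as one, the pair summed to 48.3, 51.8 and 48.3 FPKM with PBS and 6.20, 6.64 and 6.07 FPKM with cisplatin, 7.84-fold lower. The share of Tgtp1 in the pair went from 43.0% ± 0.898 to 18.8% ± 2.56 (SD, n = 3 each).

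Ifi47 (ENSMUSG00000078920, chromosome 11, 49076587 to 49096974, plus strand), which encodes Irgd, fell least. It stood at 67.4, 68.4 and 73.7 FPKM with PBS and at 24.8, 24.0 and 22.5 FPKM with cisplatin. The difference was 2.94-fold (log2 fold change -1.52, 95% interval -1.64 to -1.39, limma adjusted p = 6.67e-07), and the 3 cisplatin libraries still lay well below the PBS libraries. Olfr56 and Gm12188 overlap 217 of its exonic bases, or 8.77%.

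The unequal falls reordered the family. In each PBS library the genes ranked Igtp, Irgm2, Ifi47, Irgm1, Iigp1, Tgtp2 and Tgtp1 from high to low, and no neighbours in that order had overlapping values. In each cisplatin library the order was Ifi47, Igtp, Irgm1, Irgm2, Tgtp2, Iigp1 and Tgtp1, where the values of Iigp1 (1.20 to 1.68 FPKM) and Tgtp1 (0.982 to 1.32 FPKM) overlapped. Ifi47 held 16.6% of the summed FPKM with PBS and 30.0% with cisplatin. Iigp1 went from 7.53% to 1.90% and Tgtp1 from 5.05% to 1.49%. The 3 GMS regulators together held 65.1%, 64.0% and 63.5% with PBS and 59.4%, 60.6% and 60.3% with cisplatin. The difference of -4.09 percentage points was larger than the spread within either group. Within this class Irgm1 rose from 13.1% to 18.9%, whereas Igtp fell from 31.2% to 24.8% and Irgm2 from 19.8% to 16.4%. The log2 fold changes ranged from -2.69 to -1.82 in the GMS class and from -3.71 to -1.52 in the GKS class.

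**Figure D3:**
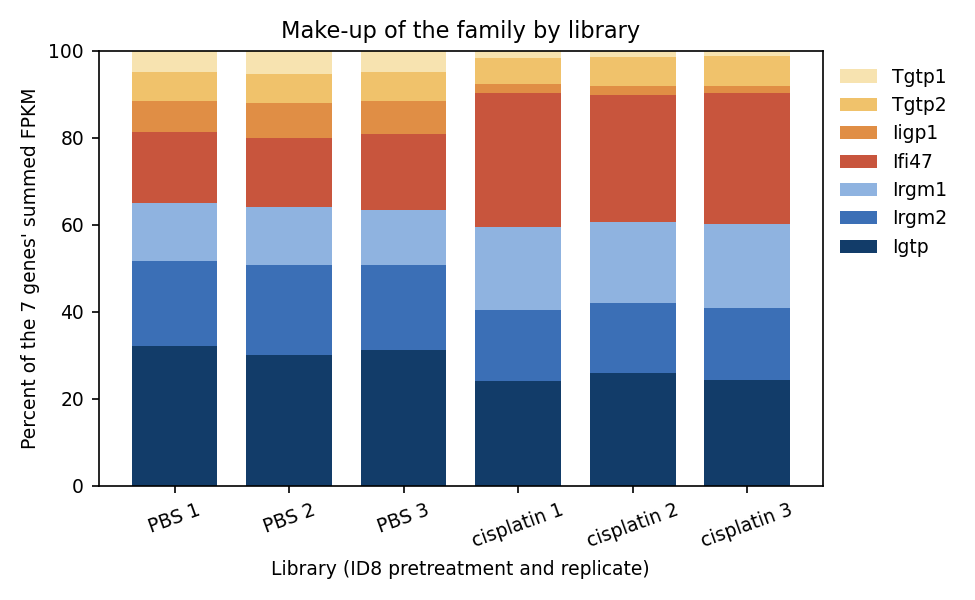
Share of each gene in the summed FPKM of the 7 genes, as stacked bars in percent for the 3 PBS and 3 cisplatin libraries, GMS genes in blue and GKS genes in red to yellow. The Ifi47 segment widens from 16.6% to 30.0% in the mean, while Iigp1 and Tgtp1 narrow to below 2.1% of each cisplatin library.

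Most of the remaining family followed. Of 12 further IRG genes listed, 11 were in the table and 9 were tested, of which 7 were called lower and 0 higher, against 11.3% and 4.67% of all tested genes. Gm4951, Gm4841, F830016B08Rik and Gm12185, 4 of the 7, were under 1 FPKM in every cisplatin library and passed the filter on low values only through their PBS values, so a fall was favoured for them, whereas none of the 7 members passed in this way. All 9 log2 fold changes were below 0, and their median was -1.61. Gm12250, named Irgb10 in RefSeq and known as an effector against bacteria, was the most abundant of them. It stood at 50.4, 55.0 and 48.4 FPKM with PBS and at 10.1, 11.8 and 11.2 FPKM with cisplatin (log2 fold change -2.12, limma adjusted p = 5.32e-07), though the table gives it the biotype of a processed pseudogene where RefSeq has a protein-coding gene. The other called genes were lower in level, the highest of them 9930111J21Rik2 (log2 fold change -1.10).

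Gm4841, Gm4951 and F830016B08Rik, neighbours of Iigp1, were at low levels, where the added 1 FPKM understates a change most. Gm4841 had 270, 206 and 270 reads with PBS and 3, 3 and 9 with cisplatin, with a log2 fold change of -2.53 in the fit and -5.61 in limma voom on recovered reads. Gm4951 had 214 to 265 reads with PBS and 9 to 14 with cisplatin, with values of -2.42 and -4.42. F830016B08Rik had 107, 121 and 81 reads with PBS and 6, 3 and 6 with cisplatin, with values of -1.41 and -4.22. In the first chromosome 11 cluster, Gm12185, whose window carries the shared stretch, had a log2 fold change of -1.90 (voom -3.22) and Gm5431 one of -1.61 (voom -2.04). The 223 exonic bases that Gm12185 shares with Tgtp1 are 6.96% of Tgtp1.

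A pair of tested genes was not called. 9930111J21Rik1 had a log2 fold change of -0.86 (95% interval -1.02 to -0.70), short of the threshold of 1, and one of -1.01 with a pseudocount of 0.1, with which it was called lower. Irgq, a divergent family member that lacks a conserved GTP-binding loop and is not known to be interferon-inducible, stood at 6.80 to 7.86 FPKM with PBS and 6.67 to 7.44 FPKM with cisplatin, and its difference was -0.07 (95% interval -0.23 to 0.09). Irgc1 and Gm12187 stayed under 1 FPKM in all libraries and were not tested.

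**Figure D4:**
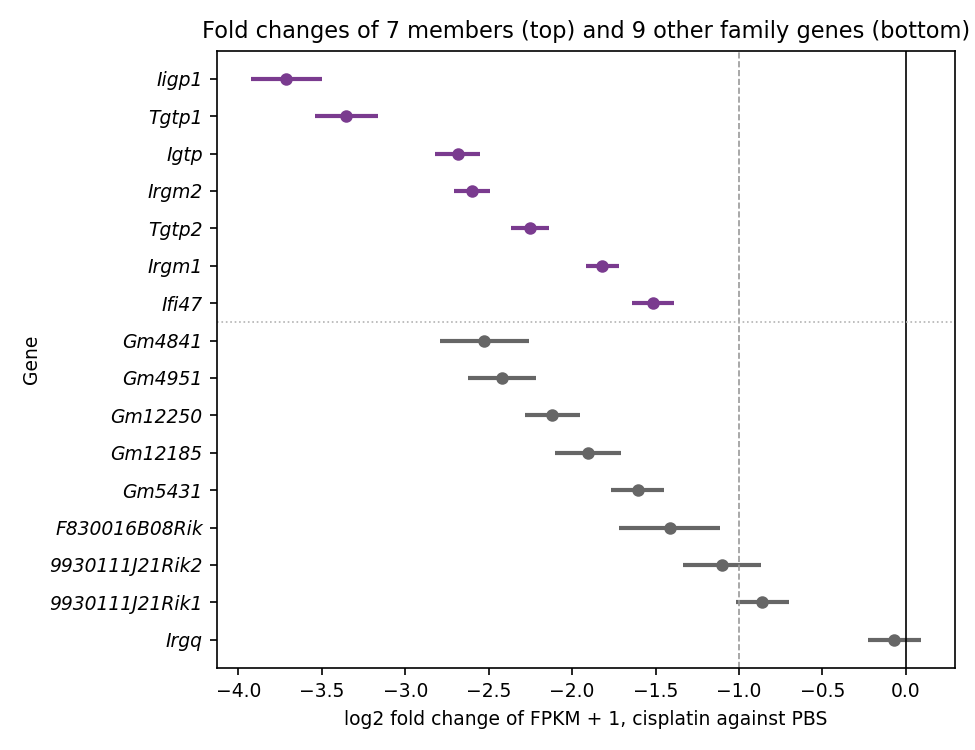
log2 fold change of FPKM + 1, cisplatin against PBS, with its 95% interval for the 7 members (purple) and the 9 tested other family genes (grey); the dashed line marks the threshold at -1. All intervals of the members lie below -1, from Iigp1 at -3.71 to Ifi47 at -1.52, and Irgq alone spans 0.

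Of the 18 family genes in the table, 16 lie in 3 groups, and Irgq and Irgc1 lie on chromosome 7. The first spans 235 kb of chromosome 11 (48861968 to 49096974) with 9 family genes, of which 7 of 8 tested were called lower. The second spans 35.0 kb of chromosome 11 (58187739 to 58222782) with Gm12250, Igtp and Irgm2, all called lower. The third spans 181 kb of chromosome 18 (60212080 to 60392627) with 4 genes, all called lower, of which Iigp1 alone passed the filter other than through PBS values only. Of the 18 nearest tested genes, 3 on each side of each group, 4 (22.2%) were called lower and 0 higher, against 11.3% called lower among all tested genes, and their median log2 fold change was 0.072. The 3 tested genes before the chromosome 18 group lie 1533 to 2265 kb away from it. The 4 called were Trim7 (-1.22), Flt4 (-2.02), Slc27a6 (-1.70) and BC023105 (-2.48), and the choice of 3 per side was made after values were seen. BC023105 was at a mean of 6.10 FPKM with PBS and 0.276 FPKM with cisplatin. It passed the filter only through PBS, so a fall was favoured for it. Mrpl22, a mitochondrial ribosomal protein gene 8.17 kb from Gm12250, differed by 0.25, and Gemin5 by 0.48. Inside the first group, Psme2b, a proteasome activator gene, had a log2 fold change of -0.73 and was not called. Olfr56, whose annotated exons overlap Ifi47, had one of -2.17, at a mean of 5.86 FPKM with PBS and 0.525 FPKM with cisplatin.

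The guanylate-binding proteins (GBPs), larger interferon-inducible GTPases that act with the IRGs at the vacuole, shared the direction. Of 11 listed, 9 were tested and 9 were called lower, against 11.3% of all tested genes. Gbp6, Gbp8 and Gbp10, 3 of the 9, were under 1 FPKM in every cisplatin library and passed the filter only through PBS. The median of their log2 fold changes was -2.76. Gbp2 stood at 269, 288 and 268 FPKM with PBS and at 24.2, 21.6 and 21.5 FPKM with cisplatin (log2 fold change -3.56). Gbp10 had 752 to 770 reads with PBS and 3 to 8 with cisplatin (log2 fold change -3.58, voom -6.91). Gbp2b and Gbp11 stayed under 1 FPKM in all libraries.

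Upstream of the family, the interferon genes listed were scarce and the receptors changed little. All 9 ligand genes listed were below 1 FPKM in every library and none was tested. Ifng, the strongest inducer of the family, had 0, 2 and 2 reads with PBS and 5, 6 and 5 with cisplatin, and Ifnb1 had 9, 4 and 5 with PBS and 0, 3 and 2 with cisplatin. Ifnk, Ifna2, Ifna5 and Ifnl2 had at most 3 reads in any library. Of 17 receptors, kinases and regulators, 4 were called lower and 0 higher by limma, against 11.3% and 4.67% of all tested genes, and at an unadjusted p under 0.05 alone 11 were lower and 2 higher, where 36.4% of all tested genes were lower and 34.3% higher by that rule. The median of their log2 fold changes was -0.24. The receptor genes Ifngr1 (0.03, 95% interval -0.09 to 0.15), Ifnar1 (-0.02, -0.13 to 0.08) and Ifnar2 (-0.02, -0.15 to 0.11) had intervals that include 0, and Ifngr2 differed by -0.17 (-0.26 to -0.07). The kinase genes Jak1 (-0.62, -0.73 to -0.51), Jak2 (-0.45, -0.55 to -0.35) and Tyk2 (-0.36, -0.49 to -0.22) had intervals below 0 and were not called. The largest falls were in regulators that are interferon-inducible as well. Usp18, which damps the type I receptor, went from 66.1 ± 0.859 to 15.9 ± 0.412 FPKM (log2 fold change -1.99), and Stat2, a subunit of the factor that binds the response element, from 73.8 ± 1.78 to 18.8 ± 0.651 FPKM (log2 fold change -1.92). Irf1, which binds the same element, had a log2 fold change of -1.29, whereas Irf9 differed by -0.24 and Irf8, a myeloid factor, by 0.48.

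Genes that serve the IRG proteins at the vacuole were tested as 2 lists. The ATG8 conjugation genes, listed for the loading of IRG proteins onto the vacuole, had 0 of 11 tested genes called in either direction. Their median log2 fold change was 0.21. At an unadjusted p under 0.05 alone 4 were lower and 7 higher by limma, a rule that 36.4% and 34.3% of all tested genes also met. Their largest differences were in Map1lc3a (-0.82) and Atg10 (-0.51). Of 9 ubiquitin ligase and adaptor genes, 3 were called lower and 1 higher, against 11.3% and 4.67% of all tested genes. The median of their log2 fold changes was -0.51, and at an unadjusted p under 0.05 alone 7 were lower and 2 higher. Rnf213, a large ubiquitin ligase, had a log2 fold change of -1.34 and Trim21, an interferon-inducible ligase, one of -1.05, while Sqstm1, the autophagy adaptor p62, went from 194 ± 7.19 to 394 ± 15.0 FPKM (log2 fold change 1.02).

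**Figure D5:**
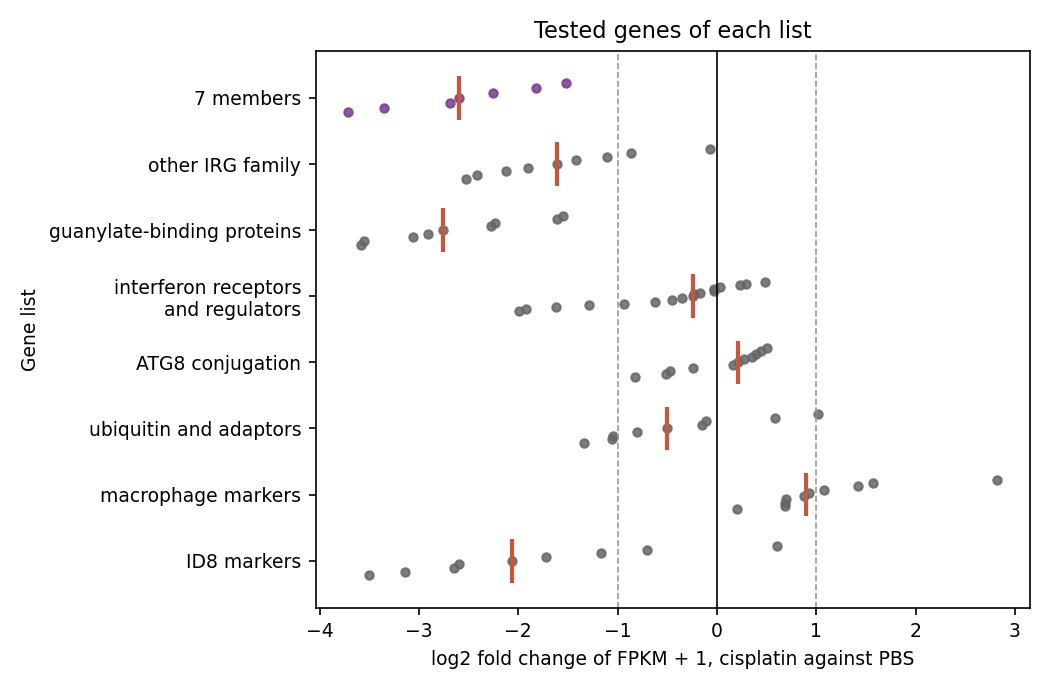
log2 fold change of FPKM + 1, cisplatin against PBS, of each tested gene in 8 lists, with a red bar at the list's median and dashed lines at -1 and 1. The members and the GBPs lie wholly below -1 with medians of -2.60 and -2.76, the ATG8 conjugation list lies between -1 and 1, and the macrophage and ID8 markers lie on opposite sides of 0 apart from 1 ID8 gene at 0.60.

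RNA levels of cell type markers differed between the groups beside these falls. All 10 macrophage markers were detected, and their summed level was 1638 to 1649 FPKM with PBS and 4203 to 4356 FPKM with cisplatin. Most of this sum was Lyz2, the most abundant, at a mean of 1161 FPKM with PBS and 3459 FPKM with cisplatin. All 10 log2 fold changes were above 0, with a median of 0.90. Of the 10, 4 were called higher, where 4.67% of all tested genes were. Adgre1 (0.87), Csf1r (0.92) and Cd68 (0.20) were among those not called. Mertk and Mrc1 passed the filter only through the cisplatin libraries. Of 12 ID8 epithelial and mesothelial markers, 7 of 9 tested were called lower, where 11.3% of all tested genes were, and their sum was 1012 to 1089 FPKM with PBS and 183 to 197 FPKM with cisplatin. Krt19, the most abundant of them, went from 588 ± 28.8 to 51.1 ± 3.80 FPKM (log2 fold change -3.50). Wt1, a mesothelial transcription factor gene, had a log2 fold change of -3.14, while Msln (-0.70) and Cdh1 (0.60) were not called. The summed level of 7 neutrophil markers, led by S100a9, was 4581 to 4737 FPKM with PBS and 8155 to 8421 FPKM with cisplatin, and that of 9 lymphocyte markers, led by Cd79a, was 113 to 121 FPKM and 267 to 273 FPKM. Of 7 fibroblast markers, 2 were tested, of which Dcn was called lower (-1.68) and Col1a1 was not called (-0.47). Of 6 dendritic markers, 4 were tested and 2 called higher, Siglech (1.99) and Flt3 (1.02), while Zbtb46 differed by -0.69 and was not called. Flt3 passed the filter only through the cisplatin libraries and Zbtb46 only through PBS. The part of these shifts in the IRG result was not tested.

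Sex-linked genes differed between the groups as well. Xist, transcribed from the inactive X of female cells, was at 39.0 to 48.8 FPKM with PBS and 7.57 to 7.94 FPKM with cisplatin (log2 fold change -2.31). The 4 Y-linked genes summed to 19.5 to 22.7 FPKM with PBS and 41.6 to 42.8 FPKM with cisplatin. When all libraries were scaled to these 4 genes, the members' median log2 fold change was -3.38, from -4.49 for Iigp1 to -2.29 for Ifi47, where the median of all tested genes was -0.78. This scaling lowers every gene, since the Y-linked genes were higher with cisplatin, and so it could not turn the direction of a member that was already lower.

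Genes whose profile over the 6 libraries was most like the members' average were found by the root mean square difference of centred log2(FPKM + 1), among 5455 genes with a mean of at least 10 FPKM. The 5 nearest were Hspa12a (0.044), Fblim1 (0.056), Ifi204 (0.060), Sdc4 (0.061) and Pdk1 (0.064). Ifi204 is an interferon-inducible nucleic acid sensor, whereas Sdc4 is a syndecan of adherent cells and Pdk1 a kinase of the pyruvate dehydrogenase complex. Among the members, Irgm2 lay closest to the average (0.030) and Iigp1 farthest (0.577). With 2 groups of 3 libraries this likeness reflects chiefly the size of the group difference, which was -2.66 to -2.49 on the log2 scale in the 5 genes.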

How the data were processed

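FPKM values of 54532 genes in 6 libraries (3 PBS, 3 cisplatin) were used as the authors deposited them. The submitters' notes name fastp, HISAT2 2.0.5, featureCounts 1.5.0-p3 and mm10, whereas the study's methods name LifeScope for alignment and counting and DESeq2 for testing, and which of them made the table was not resolved. Strand and multiple mapping settings are not given in the sources used here. The values multiplied by gene length were whole multiples of 1 read (100% within 0.1 read, for values of up to 200 reads), and the recovered reads summed to 15776238 to 17924686 per library. The FPKM denominator was 97.4% to 98.7% of that sum with PBS and 103.7% to 104.1% with cisplatin.

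Genes with at least 1 FPKM in at least 3 libraries (13441) were fitted as log2(FPKM + 1) on group in limma 3.58.1 under R 4.3.3 (lmFit, eBayes with trend, Benjamini-Hochberg), and fold changes on this scale understate those of low genes. Genes were called at an adjusted p under 0.05 where the log2 fold change was 1 or more in size, the fold of the study's methods. The procedure was tested on simulated data. Overlaps and shared 100-base stretches come from GENCODE M21, whose coding sequences were aligned with Biopython 1.88, and start-site windows from RefSeq (GRCm38.p6). In M21, the exonic length of Iigp1 is 5823 bases, against 3121 in the table.

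The members and gene lists were chosen with earlier results of these data known. Named genes are all members and other family genes, the 2 largest changes of each pathway list, the ligands above 0 in any library, the most abundant gene of each marker list, and the 5 most similar profiles. Other names were chosen after values were seen. These were neighbours, receptors, kinases, further regulators, and genes that passed the filter through 1 group. Among adaptors and markers they were Sqstm1, Wt1, Msln, Cdh1, Col1a1, Adgre1, Csf1r, Cd68, Flt3 and Zbtb46. Values of 1 further gene of the regulator list are not reported here. Alternatives were a pseudocount of 0.1, other filters, scalings, voom on recovered reads, no trend, a replicate block, the adjusted p alone and leaving out each library.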

Additional observations from a re-analysis of the deposited data

How the results depend on the processing

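All 7 members were called lower and 0 higher under every alternative run. Their median log2 fold change, -2.60 in the fit reported, was -2.68 with a pseudocount of 0.1, -2.67 with TPM rescaling, -2.54 with quantile normalisation, -2.52 with scaling by recovered reads and -3.38 with scaling by the 4 Y-linked genes. The median over all tested genes became 0.10 with quantile normalisation and -0.78 with Y-linked scaling. Leaving out each library in turn gave a median of -2.63 to -2.57 and a GMS share difference of -4.45 to -3.66 percentage points. Of the other family genes 7 were called lower, 4 with a filter at 5 FPKM, under which fewer genes are tested, and 8 with a pseudocount of 0.1, with Y-linked scaling and with the adjusted p alone. With the replicate block 7 members, 7 other family genes and 1515 genes in all were called lower and 625 higher. Same-numbered libraries did not deviate together (r of -0.104, -0.0857 and -0.0235), so the numbers were not taken as pairs. Over all genes, 628 were called higher and 1514 lower, against 973 and 1981 with a pseudocount of 0.1, 1227 and 1861 with voom, 72 and 4685 with Y-linked scaling and 4424 and 4721 with the adjusted p alone. Higher calls were 29.3% of all calls, against 39.3% with quantile normalisation, 39.7% with voom, 1.51% with Y-linked scaling and 48.4% with the adjusted p alone. Counting error is large for Gm4841, Gm4951, F830016B08Rik and Gbp10, tested on 3 to 14 reads in the cisplatin libraries, and for the genes under 1 FPKM in all libraries, which were not tested.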
